A study of Mus musculus with 12 samples.

Results

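The genes described here are the replication-dependent histone genes of the mouse, taken by symbol from the probe annotation: H1f1 to H1f5 and every gene whose symbol starts with H2ac, H2bc, H3c or H4c and a number. Membership was set by name and not by any measured value, though the family was chosen with earlier results of these data known. The annotation held 55 such genes on 84 probes, out of 19057 named genes. After a filter that kept a probe above background on at least 3 of 12 arrays, 71 of these probes remained and 50 of the 55 genes were tested among 10653 genes. The tested members were 2 linker histone H1 genes, 14 H2A, 13 H2B, 9 H3 and 12 H4 genes. H1f1, H1f3, H1f4, H2ac1 and H2ac6 did not pass the filter and were not tested. Of the 50 tested genes, 38 were above background on all 12 arrays, and none was above background in 1 group only. By the RefSeq gene annotation, 41 of the tested genes lie on chromosome 13 and 9 on chromosome 3, the locations of the large and a smaller histone gene cluster. H1f6, H2aw, H2bu2, H2bu1-ps and H4f16 carry older Hist names as well but fall outside the symbols above and were not counted.

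Replication-dependent histone genes supply the histones that package newly copied DNA, and their mRNA normally rises at the start of S phase and is degraded when DNA synthesis stops. H2A, H2B, H3 and H4 form the core of the nucleosome, and H1 binds the linker DNA between nucleosomes. Most of these mRNAs end in a stem-loop bound by SLBP in place of a poly(A) tail, although polyadenylated forms of some of them are known from differentiated cells. Myoblasts leave the cell cycle as they differentiate and fuse into myotubes.

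C2C12 is an established mouse myoblast line, and 12 samples of it were profiled on Illumina bead arrays, with 3 samples in every one of 4 groups. Cells of the mimic group were transfected with an siRNA acting as a mimic of miR-206, a microRNA of muscle, and cultured for 24 h. Those of the antimiR group received antimiR-206, an inhibitor of this microRNA, and were cultured for 48 h. The medium for Day2 cells (48 h) and Day1 cells (24 h) was differentiation medium, in which horse serum is kept low. A lipofection protocol and a Trizol protocol stand on all 12 samples. Whether Day2 and Day1 cells received any control oligonucleotide is not stated in the labels, and neither is the medium of the transfected cells. Nor do the labels call the replicates separate cultures, so p-values rest on a spread between samples that may be technical. Labelling followed Illumina's standard protocol with biotin, and which 3' end forms of the histone mRNAs were labelled was not tested.

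Median raw intensity lay between 49.5 and 63.2 on the 12 arrays, and 16636 to 18234 of 45281 probes were above background. Differentiated muscle markers separated the Day2 arrays from all others. The summed linear level of the 5 tested ones (Acta1, Ckm, Mylpf, Myog and Tnni2) was 222 to 373 on mimic arrays, 264 to 411 on antimiR arrays, 67830 to 78398 on Day2 arrays and 185 to 314 on Day1 arrays. The antimiR samples are labelled as beginning differentiation like the Day2 samples, and their muscle markers stayed at that low level at 48 h. Of the myoblast markers, 5 of 6 tested were higher in Day2 than in Day1 cells, beside 28.2% of all genes. Of 4 osteoblast markers 2 were tested, with a summed level of 344 to 467 on Day2 arrays and 107 to 143 on Day1 arrays. Of 4 macrophage markers only Cd14 was tested, at 54 to 73 on Day2 arrays and 105 to 138 on Day1 arrays. None of the 4 adipocyte or 3 endothelial markers passed the filter. The part of these differences in the histone results was not tested. Mimic replicate 1 stood apart from its group: its mean correlation across genes was 0.971 with the other mimic arrays and 0.993 with the Day1 arrays. The summed linear level of the 29 S phase genes described further on was 25232 on mimic replicate 1, against 15385 and 15367 on the other mimic arrays and 25750 to 26555 on the Day1 arrays. In the antimiR group replicate 1 differed from the other two, with an S phase sum of 15830 against 23791 and 23442, and a mean correlation with the Day1 arrays of 0.965 against 0.980 and 0.979. The S phase sum of antimiR replicate 1 thus lay near those of mimic replicates 2 and 3. Counts for the mimic and antimiR groups against Day1 are also given without replicate 1 of each.

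At Day2 the histone classes split. Against Day1 cells, 23 of the 50 histone genes were lower and 16 were higher in Day2 cells, and 11 were not called (limma, adjusted p under 0.05 over all genes tested). Of all 10653 genes, 29.0% were called lower and 28.2% higher, so the share of histone genes called in either direction, 39 of 50, stood beside 57.1% of all genes. Values of the Day2 and Day1 arrays did not overlap for 41 of the 50, against 65.9% of all genes. H2A genes were mostly lower, with 12 of 14 called lower and 2 higher and a median log2 change of -2.92. H2B genes were mostly higher, with 8 of 13 called higher and 2 lower and a median of 1.35. For H3, 8 of 9 were lower (median -0.75), and for H4, 5 of 12 were higher and 1 lower (median 0.19). The median over all 50 was -0.23 and the median over all genes -0.023. In bulk samples, fewer cells in a state and less RNA per cell cannot be told apart. When arrays were only shifted to equal medians and not quantile-normalized, 15 histone genes were called lower and 6 higher, and no call changed direction.

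**Figure D1:**
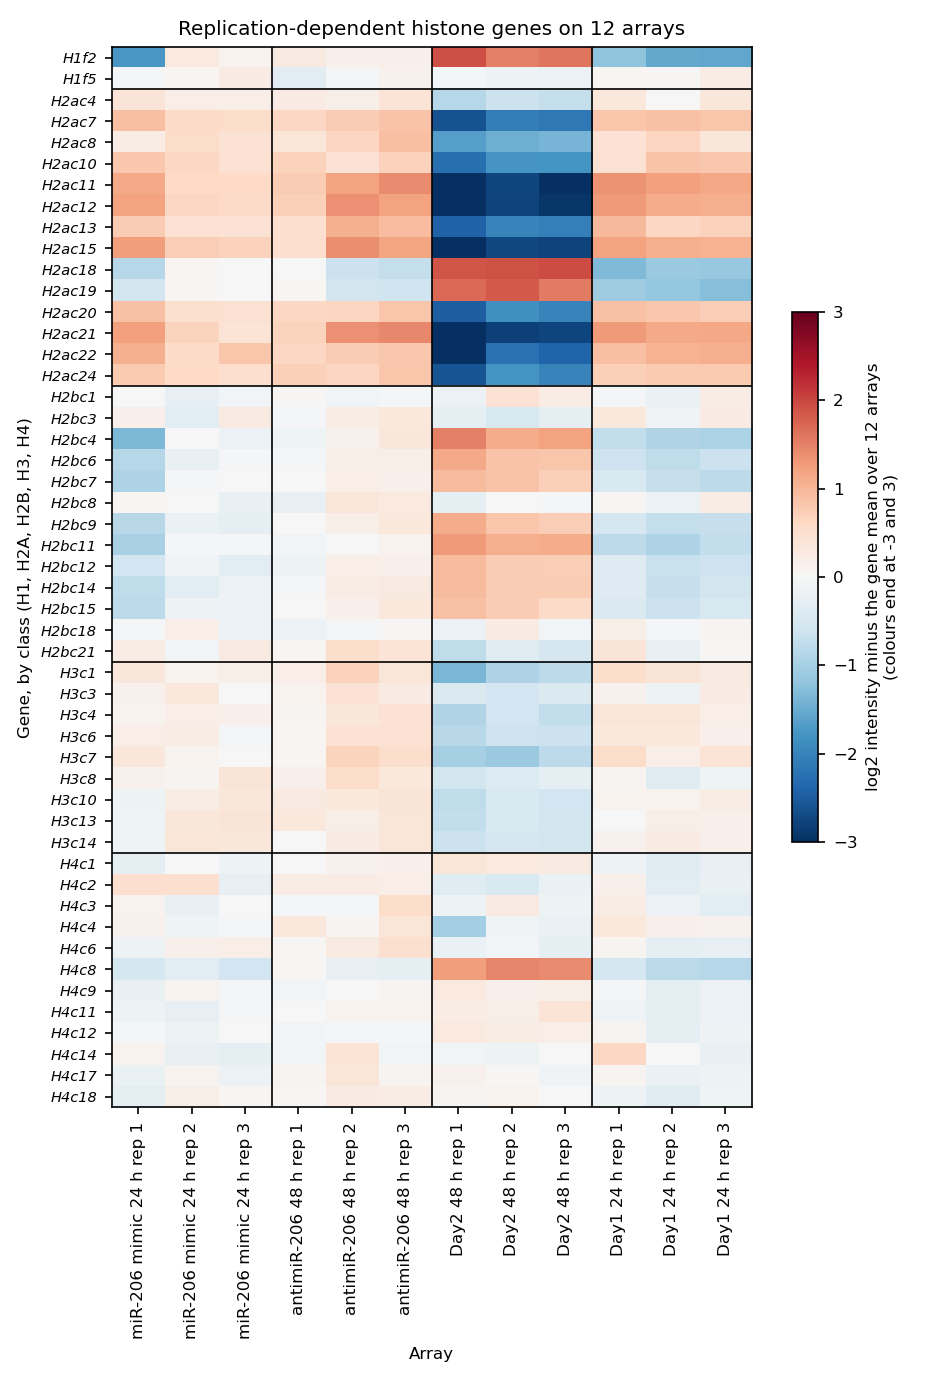
Each row is 1 of the 50 tested histone genes and each column 1 of the 12 arrays, with colour for log2 normalized intensity minus the mean of the gene over the 12 arrays. The Day2 columns are blue for most H2A and H3 rows and red for H1f2, H2ac18, H2ac19, 8 H2B rows and H4c8, while mimic replicate 1 resembles the Day1 columns in H1f2 and the H2B rows.

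Among the linker histones, H1f2, which encodes histone H1.2, had the largest change of any H1 gene in all 4 comparisons. Its log2 normalized intensity was 13.46, 13.03 and 13.13 on the Day2 arrays, against 10.30, 9.99 and 9.97 on the Day1 arrays. All Day2 values lay above all Day1 values, with a log2 change of 3.12 (SE 0.37), an 8.67-fold higher level (adjusted p = 8.84e-06). The other tested linker gene, H1f5, was near background. H1f5 read 4.67, 4.59 and 4.55 in Day2 cells, against 4.79, 4.78 and 4.96 in Day1 cells, and was not called (log2 change -0.24, adjusted p = 0.143).

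The H2A genes held the largest falls. The brightest of them, H2ac24, read 11.50, 12.29 and 12.08 on the Day2 arrays, against 14.80, 14.88 and 14.87 on the Day1 arrays. Day2 replicate 1 was the lowest of the 3 here and in the other bright H2A genes, and no value overlapped with Day1. H2ac24 fell by 2.90 on the log2 scale (SE 0.16, adjusted p = 3.84e-09). H2ac20 measured 11.51, 12.14 and 11.97 in Day2 cells and 14.85, 14.78 and 14.72 in Day1 cells, a fall of 7.50-fold. For H2ac10 the values were 11.69, 12.19 and 12.15 at Day2 and 14.41, 14.81 and 14.75 at Day1, and for H2ac13 they were 11.37, 11.78 and 11.73 at Day2 and 14.77, 14.41 and 14.49 at Day1. Both genes fell without overlap, with log2 changes of -2.65 and -2.93.

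The largest fall of the family was in H2ac11. Its values were 5.92, 6.76 and 6.37 on the Day2 arrays, against 10.84, 10.73 and 10.67 on the Day1 arrays. Every Day2 array still stood above background, and the gap between the groups was several times the spread within either. The log2 change of H2ac11 was -4.40 (SE 0.21), a 21.1-fold lower level (adjusted p = 1.24e-09). H2ac21 read 5.36, 6.36 and 6.40 in Day2 cells and 10.44, 10.29 and 10.33 in Day1 cells, a log2 change of -4.32 (adjusted p = 2.31e-08). H2ac12 and H2ac15 changed by -4.21 and -4.15, H2ac22 by -3.57 and H2ac7 by -3.13. The smallest falls among the 12 were -1.97 in H2ac8 and -0.96 in H2ac4. H2ac4 was not above background on any Day2 array, so its level there was at least 1.60-fold lower than at Day1.

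H2ac18 and H2ac19 went the other way from the remaining 12 H2A genes. H2ac18 read 8.90, 8.92 and 8.96 on the Day2 arrays, against 5.68, 5.89 and 5.87 on the Day1 arrays. The Day2 replicates were within 0.1 of each other and far above Day1, with a log2 change of 3.11 (SE 0.23, 8.64-fold, adjusted p = 8.80e-08). H2ac19 had 9.65, 9.78 and 9.51 at Day2 and 6.88, 6.80 and 6.68 at Day1, again without overlap, and was 7.25-fold higher at Day2 (log2 change 2.86, SE 0.19, adjusted p = 2.92e-08). Both genes lie on chromosome 3.

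H2B moved opposite to most of H2A. H2bc4 had the largest H2B change and read 11.32, 10.93 and 11.01 in Day2 cells, against 9.08, 8.90 and 8.86 in Day1 cells. No array of one group reached the other, and the level was 4.40-fold higher at Day2 (log2 change 2.14, SE 0.26, adjusted p = 1.11e-05). H2bc11 measured 10.34, 10.15 and 10.17 at Day2 and 8.28, 8.13 and 8.33 at Day1, a 3.93-fold rise. H2bc6 gave 10.56, 10.28 and 10.24 at Day2 and 8.80, 8.66 and 8.76 at Day1, which is 3.08-fold higher. For H2bc7 the Day2 values were 10.42, 10.33 and 10.18 and the Day1 values 9.02, 8.78 and 8.69, or 2.79-fold higher. In each of these 3 genes the lowest Day2 array was above the highest Day1 array by more than 1 log2 unit.

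The other H2B genes that rose did so by less. H2bc9 read 9.96, 9.68 and 9.58 at Day2 and 8.34, 8.12 and 8.16 at Day1 (log2 change 1.53). H2bc12 read 9.24, 9.04 and 9.01 at Day2 and 7.90, 7.62 and 7.66 at Day1 (1.37). H2bc14 had 8.72, 8.52 and 8.52 at Day2 and 7.38, 7.09 and 7.23 at Day1 (1.35). None of these overlapped between the groups, and Day2 replicate 1 was the highest array in all 3. H2bc15 read 8.93, 8.82 and 8.63 at Day2, against 7.62, 7.41 and 7.58 at Day1, and had the smallest of the 8 rises (1.26, SE 0.16). Among the 8 genes the adjusted p ran between 1.50e-06 and 2.13e-05. Under scaling to a common median only H2bc4 and H2bc11 of the 8 were still called, and the other 6 had changes in the same direction with an adjusted p from 0.0552 to 0.182. H2bc21, on chromosome 3, and H2bc3 fell, with log2 changes of -0.62 and -0.50 (adjusted p = 0.00955 and 0.0237), and neither was called under that scaling (0.403 and 0.0611). H2bc3 was not above background on any Day2 array and its level was at least 1.15-fold lower there, and both calls were lost without Day1 replicate 1 (adjusted p = 0.0540 and 0.0920). The call on H2bc3 was also lost without Day1 replicate 3 (adjusted p = 0.0763) and without Day2 replicate 2 (0.0849). H2bc1, known as the testis form of H2B, H2bc8 and H2bc18 were near background and not called, with changes between -0.14 and 0.17.

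**Figure D2:**
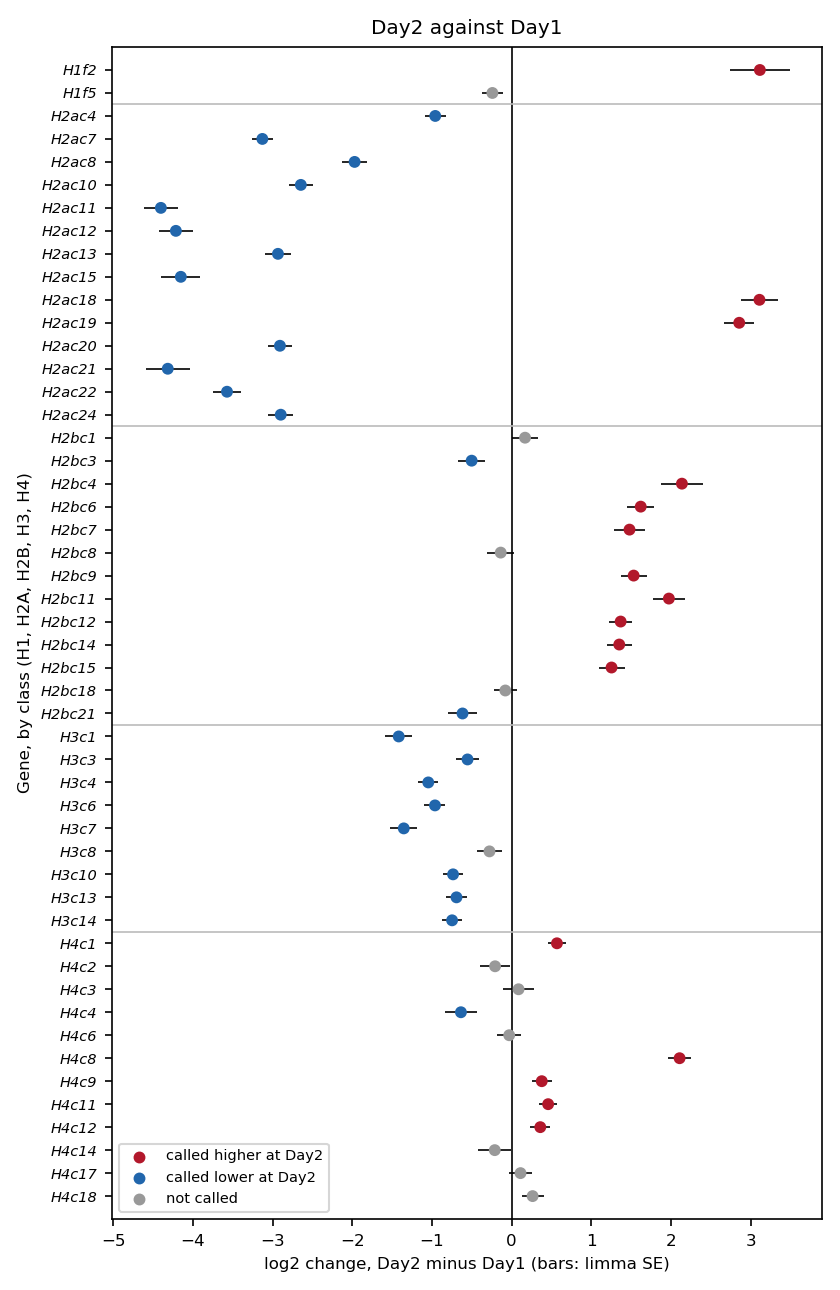
Points are log2 changes of the 50 histone genes, Day2 minus Day1, with bars for the limma standard error. H2A points lie between -4.40 and -0.96 except H2ac18 and H2ac19 at 3.11 and 2.86, and 8 H2B points lie between 1.26 and 2.14.

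Many H2A and H2B genes stand head to head, their start sites close together and facing apart, so that 1 stretch of DNA lies upstream of both. The pairs were looked for after the values of the genes had been seen. Among the RefSeq promoters (GRCm38.p6), 6 pairs had start sites fewer than 500 bases apart, and both genes were tested in 5. In 4 of the 5 the H2A gene was lower and the H2B gene higher in Day2 cells. They were H2ac15 with H2bc15, H2ac12 with H2bc12, H2ac11 with H2bc11 and H2ac7 with H2bc7. Only genes with a promoter among those searched could be paired. H2ac20 and H2bc21, neighbours on chromosome 3 (96220413-96220880 and 96221072-96223738), were not among the pairs found. Both were called lower in Day2 cells (-2.91 and -0.62), and their orientation was not examined. Over all tested genes, paired or not, 12 of 14 H2A genes were lower and 8 of 13 H2B genes higher. H2bc15, H2bc11 and H2bc7 share older names, and their probes may not tell these copies apart, so the pairs are not separate observations. The DNA between the start sites of the 4 pairs is shown because the paired genes share it and were called in opposite directions. It is the plus strand, 5′ to 3′, with capitals for CCAAT, the octamer ATTTGCAT and TATAAA on either strand:
H2ac15 and H2bc15, chr13:21753913-21754075: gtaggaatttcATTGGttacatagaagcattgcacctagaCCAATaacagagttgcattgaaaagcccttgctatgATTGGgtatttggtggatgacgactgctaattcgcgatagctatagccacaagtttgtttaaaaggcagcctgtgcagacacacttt
H2ac12 and H2bc12, chr13:22035644-22035820: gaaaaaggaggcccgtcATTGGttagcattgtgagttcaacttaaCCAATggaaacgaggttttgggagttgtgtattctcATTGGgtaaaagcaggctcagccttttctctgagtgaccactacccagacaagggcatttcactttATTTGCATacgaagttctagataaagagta
H2ac11 and H2bc11, chr13:22042950-22043197: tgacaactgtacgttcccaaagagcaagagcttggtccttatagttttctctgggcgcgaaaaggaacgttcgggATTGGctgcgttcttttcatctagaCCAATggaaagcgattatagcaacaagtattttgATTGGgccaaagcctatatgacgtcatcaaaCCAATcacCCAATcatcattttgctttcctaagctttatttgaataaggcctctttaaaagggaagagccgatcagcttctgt
H2ac7 and H2bc7, chr13:23574208-23574380: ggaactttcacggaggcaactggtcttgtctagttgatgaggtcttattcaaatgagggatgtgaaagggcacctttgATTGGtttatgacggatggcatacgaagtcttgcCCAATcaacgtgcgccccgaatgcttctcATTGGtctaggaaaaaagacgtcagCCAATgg
The H2A gene starts to the left of the stretch and the H2B gene to its right in the first 3 pairs, and the order is reversed for H2ac7 and H2bc7.

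The stretches differ in length and in the motifs they hold. CCAAT or its complement occurred 3 times in the 163 bases between H2ac15 and H2bc15, 3 times in the 177 bases between H2ac12 and H2bc12, 5 times in the 248 bases between H2ac11 and H2bc11 and 4 times in the 173 bases between H2ac7 and H2bc7. At those lengths, 25.9% to 33.7% of all promoters hold at least 1. The octamer was present once, between H2ac12 and H2bc12, and in 1.18% of all promoters at that length. TATAAA was in none of the 4. None of the 3 motifs contains another. Over the 250 bases upstream of each start, CCAAT was found for 14 of 14 H2A and 11 of 11 H2B genes with a promoter in the table, for 6 of 7 H3 and 3 of 11 H4 genes, and for 33.8% of all 32851 promoters. H2ac18 and H2ac19 held CCAAT like the 12 H2A genes that fell, and neither held the octamer, which 4 of those 12 had. A match is a description of the letters and not of binding.

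In the pair of H2ac11 and H2bc11 the contrast between the genes was widest. H2ac11 was 21.1-fold lower and H2bc11 3.93-fold higher in Day2 cells. H2ac15 read 9.06, 9.92 and 9.88 at Day2 and 13.86, 13.74 and 13.71 at Day1, a 17.8-fold fall, beside the 2.39-fold rise of H2bc15. H2ac12 read 8.94, 9.64 and 9.51 at Day2 and 13.69, 13.53 and 13.51 at Day1, an 18.6-fold fall, beside the 2.58-fold rise of H2bc12. H2ac7 read 11.17, 11.70 and 11.64 at Day2 and 14.61, 14.66 and 14.62 at Day1, an 8.74-fold fall, beside the 2.79-fold rise of H2bc7. No Day2 array overlapped with a Day1 array in any of these 8 genes. The exception among the 5 pairs was H2ac8 with H2bc8, where H2ac8 fell by 1.97 on the log2 scale and H2bc8, near background, was not called. With scaling to a common median the H2B calls of 3 of the pairs were lost and H2bc11 was still called.

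**Figure D3:**
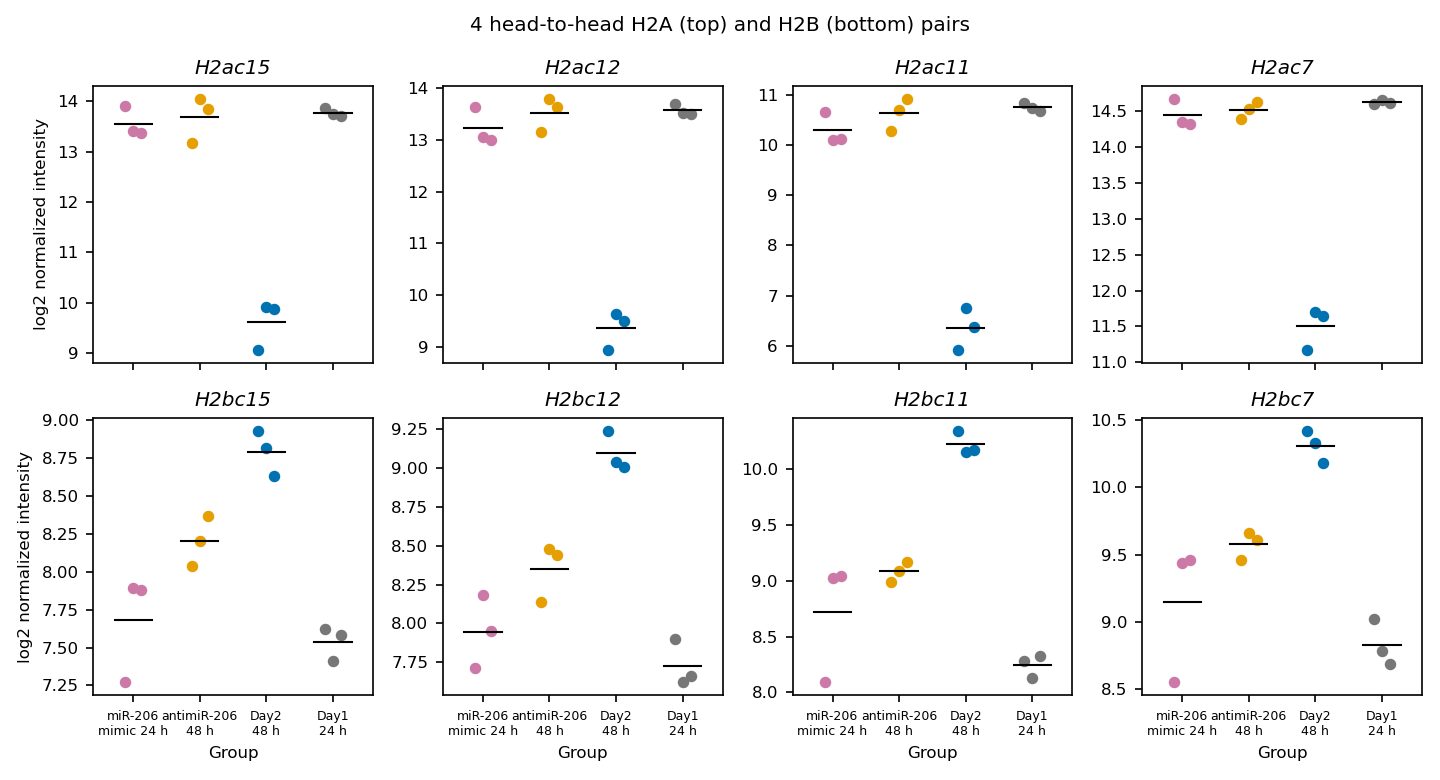
Points are log2 normalized intensities on single arrays for the 4 pairs called in opposite directions, with the H2A gene above its H2B partner, a line for each group mean and a separate vertical scale in each panel. Day2 is lowest in every upper panel and highest in every lower panel.

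H3 genes fell in Day2 cells by less than most H2A genes. The brightest, H3c13, read 10.63, 10.89 and 10.80 on the Day2 arrays, against 11.36, 11.54 and 11.50 on the Day1 arrays. H3c14 had 9.96, 10.10 and 10.06 at Day2 and 10.74, 10.86 and 10.76 at Day1. H3c10 had 9.79, 10.08 and 9.97 at Day2 and 10.65, 10.64 and 10.76 at Day1. In these 3 genes every Day2 array lay below every Day1 array, with log2 changes of -0.69, -0.75 and -0.73. H3c6 read 7.28, 7.51 and 7.47 at Day2 and 8.45, 8.43 and 8.27 at Day1 (-0.96, adjusted p = 3.00e-05). The largest H3 change was in H3c1, which read 5.40, 5.84 and 5.97 at Day2, against 7.29, 7.15 and 7.02 at Day1. H3c1 was 2.67-fold lower (log2 change -1.42, SE 0.17, adjusted p = 8.84e-06), followed by H3c7 (-1.35) and H3c4 (-1.05). H3c3 was not above background on any Day2 array and at least 1.07-fold lower there. H3c8 read 4.29, 4.41 and 4.57 at Day2 and 4.91, 4.47 and 4.71 at Day1, overlapped, and was not called. Under scaling to a common median, H3c4, H3c6, H3c10, H3c13 and H3c14 were no longer called (adjusted p from 0.124 to 0.206).

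H4 genes had the smallest median change of the core classes (0.19), with 1 gene far above the others. H4c8 read 7.93, 8.15 and 8.11 on the Day2 arrays, against 6.15, 5.88 and 5.83 on the Day1 arrays. That is 4.32-fold higher without overlap (log2 change 2.11, SE 0.14, adjusted p = 2.91e-08). H4c1, the brightest H4 gene, read 8.88, 8.80 and 8.78 at Day2 and 8.35, 8.14 and 8.27 at Day1, a change of 0.57. H4c11 had 7.24, 7.20 and 7.43 at Day2 and 6.91, 6.73 and 6.84 at Day1 (0.46), and H4c9 had 7.50, 7.35 and 7.38 at Day2 and 7.14, 6.94 and 7.02 at Day1 (0.38). H4c12 read 6.55, 6.47 and 6.46 at Day2 and 6.33, 5.97 and 6.10 at Day1 (0.36). These 4 rises were each under 1.5-fold, though no Day2 array fell below a Day1 array. H4c6 read 7.34, 7.45 and 7.26 at Day2 and 7.62, 7.23 and 7.29 at Day1, overlapped, and was not called (-0.03). H4c4 fell (-0.64, adjusted p = 0.0157).

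Of the 6 H4 calls only that on H4c8 was kept under scaling to a common median. There H4c1, H4c9, H4c11 and H4c12 were no longer called (adjusted p from 0.73 to 0.848), nor was H4c4 (0.191). Those on H4c4, H4c9 and H4c12 also rested on single arrays. H4c4 was not called without Day1 replicate 1 (adjusted p = 0.0553) or without Day2 replicate 1 (0.0542), and its change was -0.34 without Day2 replicate 1. H4c9 was not called without Day1 replicate 2 (0.0673) or Day2 replicate 1 (0.0536), nor H4c12 without Day1 replicate 2 (0.103), Day1 replicate 3 (0.0596) or Day2 replicate 1 (0.0554). H4c14, H4c17, H4c18, H4c2 and H4c3 were not called either, with changes between -0.21 and 0.26.

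The coding regions of these genes are nearly alike, and some probes may not tell copies apart. Shared older names in the RefSeq table join H2bc7, H2bc11 and H2bc15, then H2bc4, H2bc6 and H2bc8, then H3c1, H3c8 and H3c10, then H3c3, H3c4, H3c6, H3c7, H3c13 and H3c14, and the H4 genes. Within those sets, values can come from transcripts of a neighbour. Older names joined no H2A genes, but probe sequences were not compared, so H2A probes may read each other's transcripts too. Counts of genes in a class may thus hold the same signal more than once. Members of a set were not uniform, since H2bc8 stayed near background while H2bc4 and H2bc6 rose. Of the 18 genes with more than 1 kept probe, 11 had at least 2 called probes and all of these moved one way, and in 2 genes called probes moved in both directions.

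Both genes with opposed probes lie on chromosome 3. The second probe of H2ac20 read 6.85, 6.85 and 6.83 on the Day2 arrays, against 5.15, 5.23 and 5.22 on the Day1 arrays. It rose by 1.64 on the log2 scale (adjusted p = 3.99e-07 over all kept probes), while the probe used for H2ac20 fell by 2.91. The second kept probe of H3c14 read 5.94, 6.24 and 6.08 at Day2 and 5.02, 5.0 and 5.27 at Day1. It rose by 0.99 (adjusted p = 0.00028), while the probe used for H3c14 fell by 0.75. For these genes the direction thus depended on the probe, and the brighter probe was the one used. Another probe of H2ac18 was not called (0.35, adjusted p = 0.295), while its other 2 rose by 3.11 and 2.96. The 2 dimmer probes of H4c6 fell (-0.79 and -0.45, adjusted p = 0.00433 and 0.0156), unlike the brighter one. For H4c12 and H2bc21 the second kept probe changed by -0.38 and 0.26, opposite in sign to the probe used. Neither of these second probes was called (adjusted p = 0.063 and 0.111). The size of a fall also depended on the probe. Dimmer probes of H2ac7, H2ac10 and H2ac13 changed by -4.11, -3.49 and -3.35, against -3.13, -2.65 and -2.93 for the brighter probes used. For H2ac12 the 2 probes were close (-4.27 and -4.21). Whether the brightest signals were compressed was not tested. Counted one by one, 30 of the 71 kept histone probes were lower and 23 higher in Day2 cells.

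**Figure D4:**
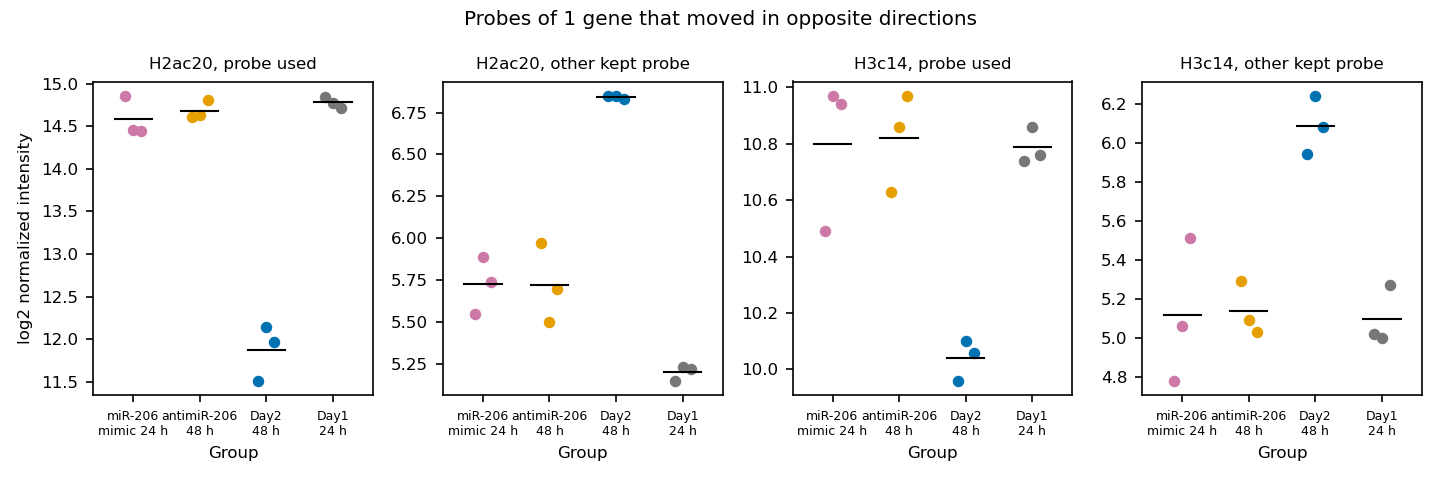
Points are log2 normalized intensities on single arrays for the probe used and the other kept probe of H2ac20 and of H3c14, with a line for each group mean and a separate vertical scale in each panel. At Day2 the probe used is lowest and the other probe highest, for both genes.

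Against Day1 cells, fewer genes were called in mimic cells of the same culture time than in Day2 cells, histone genes among them. Of the 50, 2 were called higher and 0 lower (limma), beside 4.38% of all genes higher, 4.08% lower and 8.47% in either direction. At an unadjusted p under 0.05 there were 4 higher and 1 lower, and 6 had no overlap between the groups, against 24.6% of all genes. H2ac19 read 7.39, 8.02 and 7.93 on the mimic arrays and 6.88, 6.80 and 6.68 on the Day1 arrays. H2ac18 read 6.16, 7.06 and 7.02 on the mimic arrays and 5.68, 5.89 and 5.87 on the Day1 arrays. In both genes mimic replicate 1 was the lowest mimic array and still above Day1. H2ac19 was 1.99-fold higher (log2 change 0.99, SE 0.19, adjusted p = 0.0186) and H2ac18 1.91-fold higher (0.93, SE 0.23, adjusted p = 0.0372). The median change of the 50 genes was 0.02, beside 0.0024 over all genes.

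Other histone genes were divided by mimic replicate 1. H1f2 read 9.78, 11.81 and 11.63 on the mimic arrays, against 10.30, 9.99 and 9.97 on the Day1 arrays. Mimic replicate 1 lay below all Day1 arrays and the other two mimic arrays above them, and H1f2 was not called (log2 change 0.98, SE 0.37, adjusted p = 0.102). H2bc11 showed the same split, with 8.09, 9.02 and 9.04 in mimic cells and 8.28, 8.13 and 8.33 in Day1 cells (0.47, adjusted p = 0.130). H3c8 read 4.95, 4.91 and 5.22 in mimic cells and 4.91, 4.47 and 4.71 in Day1 cells (0.33), and H4c2 read 5.25, 5.25 and 4.50 in mimic cells and 4.90, 4.41 and 4.53 in Day1 cells (0.38). Neither was called, and both were near background. The largest fall, -0.47 in H2ac11, was not called (adjusted p = 0.164).

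Without mimic replicate 1, 9 histone genes were higher and 2 lower in mimic than in Day1 cells, while 18.2% of all genes were called higher, 19.5% lower and 37.7% in either direction. H1f2 then rose by 1.63 on the log2 scale, H2ac18 by 1.22 and H2ac19 by 1.19. The H2B genes H2bc4, H2bc6, H2bc7, H2bc9, H2bc11 and H2bc15 rose by 0.35 to 0.78. H2ac11 and H2ac12 fell by 0.65 and 0.56. The counts with all 3 mimic arrays also hung on other arrays. Without mimic replicate 2 or 3, 0 histone genes were called (35 and 32 of 10653 genes in all). Without Day1 replicate 2 or 3 there were also 0 (28 genes in all each time). With every array 902 genes were called, so calls over all genes fell as well. Only 1 histone gene was called without Day1 replicate 1, Day2 replicate 2 or 3, or antimiR replicate 2 or 3. There too, fewer genes were called in all. No histone gene was called with only the mimic and Day1 arrays fitted (3 genes in all). Scaling to a common median also gave none (25 genes in all).

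Cells given antimiR-206 and cultured for 48 h differed from Day2 cells of the same culture time in most histone genes. Of the 50 genes, 26 were higher and 12 lower in antimiR than in Day2 cells, beside 26.5% and 24.9% of all genes, or 51.3% in either direction. Values did not overlap for 42 of the 50, against 61.8% of all genes, and the median change was 0.47, beside 0.031 over all genes. This comparison and that of Day2 with Day1 share the Day2 arrays, so they are not independent. H2A was higher in antimiR cells for 12 of 14 genes and lower for 2, H2B lower for 8 of 13 and higher for 2, H3 higher for 9 of 9 and H4 higher for 3 of 12 and lower for 1. With scaling to a common median, 23 were called higher and 2 lower. The 2 were H2ac18 and H2ac19.

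Single genes show the distance between the groups. H2ac21 read 9.82, 10.54 and 10.61 on the antimiR arrays, against 5.36, 6.36 and 6.40 on the Day2 arrays. All antimiR arrays lay far above all Day2 arrays, with a 19.5-fold difference (log2 change 4.28, SE 0.28, adjusted p = 2.80e-08). H2ac24, the brightest, read 14.81, 14.73 and 14.91 in antimiR cells and 11.50, 12.29 and 12.08 in Day2 cells (2.86). H3c1 had 6.97, 7.45 and 7.13 in antimiR cells and 5.40, 5.84 and 5.97 in Day2 cells (1.45, adjusted p = 9.05e-06). As in all 14 H2A and 9 H3 genes tested, the groups did not overlap. Of the genes that were lower, H1f2 read 11.78, 11.66 and 11.67 in antimiR cells and 13.46, 13.03 and 13.13 in Day2 cells, 2.83-fold lower (adjusted p = 0.00417). H2ac18 was 5.16-fold lower, with 7.02, 6.36 and 6.30 in antimiR cells and 8.90, 8.92 and 8.96 in Day2 cells. H2ac19, H4c8 and H2bc4 were 4.16-fold, 2.93-fold and 2.23-fold lower. H3c8 and H4c2 were called higher, by at least 1.40-fold and 1.21-fold, since neither was above background on any Day2 array. The call on H4c2 was lost without any 1 antimiR array and without Day2 replicate 1 or 2 (adjusted p from 0.0579 to 0.0833).

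Set against Day1 cells, antimiR cells had 14 histone genes higher and 0 lower (limma), beside 12.9% of all genes higher, 9.78% lower and 22.7% in either direction. At an unadjusted p under 0.05 there were 17, all higher, and 20 did not overlap between the groups, against 48.2% of all genes. This comparison mixes treatment with culture time, 48 h against 24 h, and shares its Day1 arrays with 2 comparisons above. H2A genes other than H2ac18 and H2ac19 were not called, with log2 changes between -0.28 and 0.16. H1f2 was 3.06-fold higher, at 11.78, 11.66 and 11.67 in antimiR cells and 10.30, 9.99 and 9.97 in Day1 cells (adjusted p = 0.0114). H2bc4, H2bc6, H2bc7, H2bc9, H2bc11, H2bc12, H2bc14 and H2bc15 were higher by 0.63 to 0.98. H2bc4, with the largest of these changes, read 9.68, 9.95 and 10.15 in antimiR cells, against 9.08, 8.90 and 8.86 in Day1 cells. H2ac19 read 8.02, 7.40 and 7.35 in antimiR cells and 6.88, 6.80 and 6.68 in Day1 cells (0.80), and H4c8 read 6.71, 6.43 and 6.39 in antimiR cells and 6.15, 5.88 and 5.83 in Day1 cells (0.56). In both, antimiR replicate 1 was the highest array. H3c8 (0.47, adjusted p = 0.0426), H2ac18 (0.74) and H4c1 (0.36) were the remaining calls.

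The size of this set depended on single arrays. Without Day1 replicate 2 there were 4 histone calls (869 genes in all), and without Day1 replicate 3 there were 3 (711 in all). Without antimiR replicate 1, 2 or 3 there were 7, 10 or 9 (647, 1663 and 1624 in all). With every array 2413 of 10653 genes were called, so calls over all genes fell as well. Without antimiR replicate 1, 3.42% of all genes were called higher, 2.66% lower and 6.07% in either direction. H1f2 itself was not called without Day1 replicate 3 (adjusted p = 0.0530) or antimiR replicate 1 (0.0521), and H3c8 was not called without any 1 antimiR array. Scaling to a common median left 1 call, H1f2. Mean levels of H1f2 were 11.07 ± 1.13 in mimic cells, 11.70 ± 0.06 in antimiR cells, 13.21 ± 0.22 in Day2 cells and 10.09 ± 0.19 in Day1 cells (SD, n = 3 each). The mimic arrays overlapped with both the antimiR and the Day1 arrays, while Day2, antimiR and Day1 arrays were apart from each other.

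**Figure D5:**
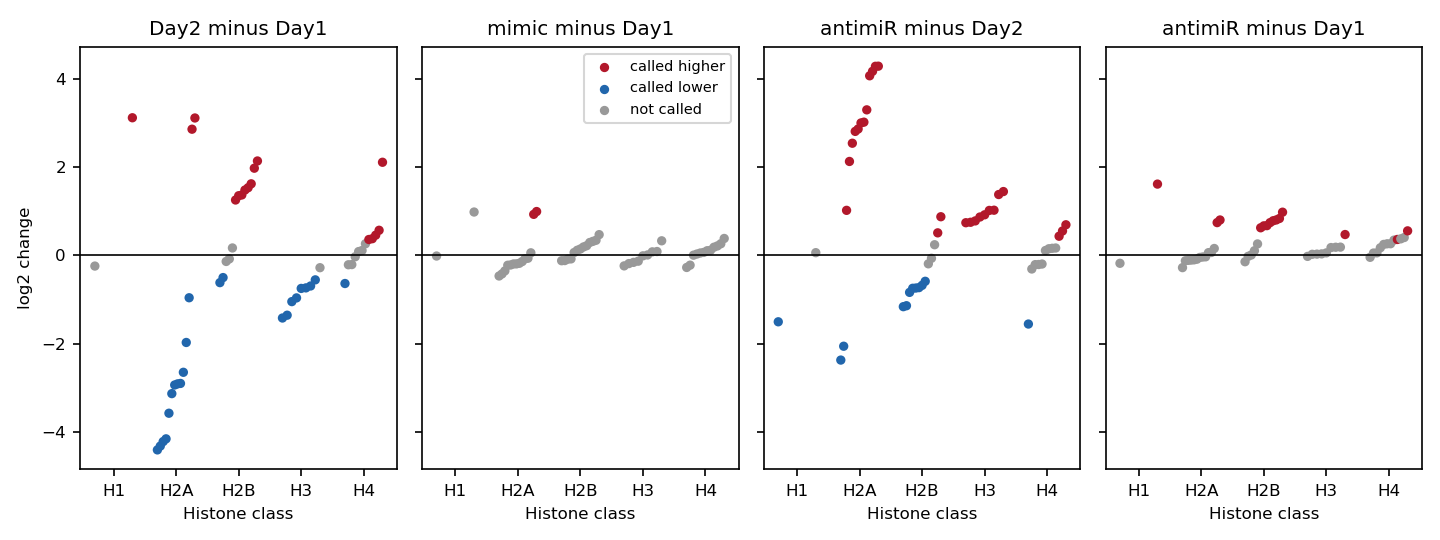
Each point is the log2 change of 1 histone gene, by class, in the 4 comparisons, coloured by whether limma called it at an adjusted p under 0.05. H2A points reach -4.40 in Day2 minus Day1 and 4.28 in antimiR minus Day2, and no called point is below 0 in mimic minus Day1 or antimiR minus Day1.

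Genes that act with the histones were followed from lists drawn up for this purpose. Of 29 S phase genes tested, 28 were lower in Day2 than in Day1 cells, 0 were higher, and the median log2 change was -2.43. Over all 10653 genes, 29.0% were called lower and 28.2% higher in this comparison. Tk1, the thymidine kinase of the salvage pathway, read 7.46, 8.03 and 8.04 at Day2, against 12.10, 12.03 and 11.90 at Day1. Mcm5, a helicase subunit, fell by 3.66 and Uhrf1, which copies DNA methylation patterns, by 3.61, while Cdk2 was not called (0.04). The H2A genes, 12 of 14 lower, thus lay on the side of the S phase genes, and 8 of 13 H2B genes on the other. Of 14 histone chaperone and acetyltransferase genes, 10 were lower and 3 higher. Among the chaperones that hand H3 and H4 to new DNA, Asf1b fell by 4.05, Chaf1a fell by 3.09 and Chaf1b fell by 3.11. The H3.3 chaperone Daxx rose by 0.74. Under scaling to a common median 9 genes of the list were lower and 0 higher (1881 genes called in all).

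Replication-independent histone genes, which encode variants used outside S phase as well, were lower in 7 of 9 cases and higher in 0. Cenpa, the centromeric H3 variant, read 8.99, 9.41 and 9.57 at Day2 and 12.90, 12.72 and 12.68 at Day1, a fall of 10.9-fold. H2ax fell by 2.57, H2az1 by 2.13 and H1f10 by 1.20, and H3f3b, which encodes H3.3, by 0.38. H3f3a (-0.17) and H2az2 (-0.40) were not called. Among 14 genes for transcription and 3' processing of histone mRNA, 6 fell and 0 rose, beside 29.0% of all genes called lower and 28.2% higher. Srrt, a partner of the cap-binding complex, fell by 1.58, the cleavage factor Cstf2 by 1.22 and the cap-binding Ncbp2 by 1.16, while Npat and Hinfp, activators of histone transcription, fell by 0.47 and 0.48. Slbp was not among the genes tested. Under scaling to a common median 3 of the 9 replication-independent histone genes and 1 of the 14 processing genes were still called lower, as were 28 S phase genes.

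Counts of the lists for mimic and antimiR cells against Day1 depended on single arrays. In mimic against Day1 cells, 6 of the 29 S phase genes and 1 of the 14 chaperone genes, Chaf1b (-0.70), were lower, with none higher, and no gene of the other 2 lists was called. The shares over all genes were 4.08% lower and 4.38% higher. Mimic replicate 1 lay near the Day1 level in these lists, with a summed chaperone level of 10466, against 8269 and 8670 on the other mimic arrays and 10892 to 11640 on the Day1 arrays. Without it, 22 S phase genes, 8 chaperone genes, 4 processing genes and 3 replication-independent histone genes were lower, and 3 replication-independent histone genes were higher. The shares over all genes were then 19.5% lower and 18.2% higher. Without mimic replicate 2 or 3, or any 1 Day1 array, no gene of the 4 lists was called. None was called under scaling to a common median. In each of these settings calls over all genes also fell, from 902 with every array and quantile normalization.

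In antimiR against Day2 cells, 27 S phase genes were higher and 1 lower, 9 chaperone genes higher and 3 lower, 8 replication-independent histone genes higher, and 5 processing genes higher and 1 lower. The lists held 29, 14, 9 and 14 tested genes, and 26.5% of all genes were called higher and 24.9% lower. Under scaling to a common median no gene of the 4 lists was lower there, and 27, 9, 7 and 2 were higher. In antimiR against Day1 cells, 5 S phase genes, 1 chaperone gene (Ipo4, -0.57) and 1 processing gene (Upf1, -0.58) were lower, and 3 replication-independent histone genes were higher: H1f10 (1.11), H2az2 (1.10) and H3f3a (0.79). The shares over all genes were 9.78% lower and 12.9% higher. Without antimiR replicate 1, 0 S phase genes, 1 chaperone gene and 0 processing genes were lower and 1 replication-independent histone gene was higher. The shares over all genes were then 2.66% lower and 3.42% higher. The S phase count was also 0 without Day1 replicate 2 or 3 (869 and 711 genes called in all). It was 1 without Day1 replicate 1 (1915 in all) and 10 without mimic replicate 1 (3752 in all). Under scaling to a common median no gene of the 4 lists was called in this comparison.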

How the data were processed

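Raw probe intensity per array, on a linear scale, is what the authors deposited as their scanner table, with no background step or normalization recorded in its header. The detection column of the deposited table holds a score that rises with brightness, and 1 minus the score was used as detection p. The authors also deposited processed values on a log2 scale (median 6.43 on each array, background step unknown), which served as an alternative. Their Day2 replicates 2 and 3 match each other's scanner column in rank order, which leaves the group unaffected. The tool lumi is named, without a version, per the submitters' processing notes.

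Intensities were corrected with limma 3.58.1 (R 4.3.3) by normexp, with background inferred from detection p, an offset of 16 and quantile normalization before the log2 step. Probes with detection p under 0.05 on at least 3 of 12 arrays were kept (19809 of 45281). The annotation gave 34885 probes 1 gene symbol, 18 several and 10378 none, and the brightest kept probe stood for its gene (10653 genes). One limma model with 4 group means and a variance trend was fitted to all genes, with 2-sided tests and Benjamini-Hochberg adjustment over all genes and a threshold of 0.05. Values in the text are log2 normalized intensities in order of replicates 1, 2 and 3, changes are log2 differences with their standard error, and signals of different probes are no measure of relative abundance. The number of arrays limits the precision. For a probe that no array of a group showed above background, the fold is a lower bound (at least N-fold): the mean of the bright group over that of the dim group, after lifting dim values to the lowest signal above background of the same array.

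Genes given with array values were the 4 brightest of each class, the largest change of each class in each comparison and every gene called in the less frequent direction, and other genes of the head-to-head pairs were added after their values were seen. The histone genes, gene lists, markers and tests were chosen with earlier results of these data known. Alternatives were another scaling, background correction, detection filter, choice of probes and samples, array weights, the replicate number as a block and leaving out each array, and counting every kept histone probe by itself, and the counts of the gene lists under each alternative, were added after seeing the data. Promoters are from RefSeq (GRCm38.p6). The fit was tested on simulated data.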

Additional observations from a re-analysis of the deposited data

How the results depend on the processing

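Calls on the histone genes depended on the scaling and, against Day1, on single arrays. With arrays scaled to a common median, 15 histone genes were lower and 6 higher in Day2 than in Day1 cells (1881 genes called in all, against 6088 with quantile normalization), 0 were higher in mimic than in Day1 cells (25 genes in all, 36% of them higher, against 51.8% of 902), 2 were lower in antimiR than in Day2 cells (1790 genes in all, 64.8% higher, against 51.6% of 5466) and 1 was higher in antimiR than in Day1 cells (197 genes in all, 79.2% higher, against 56.8% of 2413). Under that scaling the median change of all genes was -0.12, -0.041, 0.31 and 0.18 in these 4 comparisons. Of the 39 histone calls between Day2 and Day1, 18 were lost there and none reversed; the cause was not tested. For mimic against Day1, 1 histone gene was higher with no detection filter (183 genes in all), 0 with only the arrays compared (3 in all), 16 higher and 6 lower with array weights (4909 in all), and 4 probes were higher when every kept histone probe was counted. In antimiR against Day2, 19 histone probes were lower when counted one by one. In antimiR against Day1, 1 was lower with only the arrays compared (3793 in all), and array weights gave 4384 calls in all. Over all kept probes, which is a larger number of features, 10598, 9371 and 3841 calls were made in Day2 against Day1, antimiR against Day2 and antimiR against Day1.

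Leaving out 1 array gave 20 to 23 histone genes lower and 14 to 16 higher in Day2 than in Day1 cells (5506 to 6680 genes in all), 0 to 2 lower and 0 to 9 higher in mimic than in Day1 cells (28 to 4017), 12 to 13 lower and 23 to 26 higher in antimiR than in Day2 cells (4603 to 6162), and 0 lower and 3 to 16 higher in antimiR than in Day1 cells (647 to 3752). Where this left 2 arrays in a group, the spread was pooled over the groups. Whether replicate numbers pair the samples cannot be decided from the arrays, since deviations are taken from means of only 3. Deviations of same-numbered arrays correlated between -0.5496 and 0.1672 (median -0.0434). Those of differently numbered arrays correlated between -0.3453 and 0.484 (median 0.0086). Highest were antimiR replicate 1 with mimic replicates 2 and 3 (0.484 and 0.434) and mimic replicate 1 with antimiR replicates 2 and 3 (0.433 and 0.3599). The lowest was mimic replicate 1 with antimiR replicate 1, and the cause was not tested. With the replicate number as a block, 0 histone genes were called for mimic against Day1 (53 genes in all), and 11 histone genes were higher in antimiR than in Day1 cells. In the other 2 comparisons the block changed no histone count.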
